A study of Rattus norvegicus with 3 samples.

Results

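The SOX, forkhead, ETS, GATA and KLF factors are families of sequence-specific transcription factors, each named for the DNA-binding domain its members share. Their levels were compared across the 3 major salivary glands of the rat. Members were taken by gene name from the array files: names made of Sox, Gata, Klf, Elf, Etv or Elk and a digit, names made of Fox, a letter and a digit, and Spdef, Ehf, Ets1, Ets2, Erf, Erg and Fli1. The names found were 74, carried by 100 probes, of 35737 gene names on 41012 probes in all. They comprise 14 SOX, 25 forkhead, 18 ETS, 5 GATA and 12 KLF genes. All 74 matched a gene of the RefSeq table, in which Foxo1a and Foxo3a are now Foxo1 and Foxo3. No probe carried the name Spdef.

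RNA came from normal male Wistar rats, 10 weeks old, and the parotid, the submandibular and the sublingual gland had 1 array each. The design text speaks of 3 rats, and the sources used here do not say which animal or animals an array stands for. Each gland is therefore 1 measurement with no replicate, no test was made, and no count below is a count of tested changes. The arrays shared 1 slide and 1 scan, so a gland and its place on that slide cannot be told apart.

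SOX proteins bend DNA through a high-mobility-group box and often act in progenitor cells. Forkhead proteins carry a winged-helix domain, and the FOXA group can open closed chromatin in organs of endodermal origin. ETS proteins bind sites with a GGA core and many respond to receptor tyrosine kinase signalling. GATA and KLF proteins are zinc-finger factors with known parts in blood, endothelium and epithelia. In salivary glands, SOX and ETS factors are known from branching and from acinar and duct progenitors, while the parotid is serous and the sublingual gland mainly mucous.

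Each level is log2 of the spot's processed signal minus the 75th percentile of its array, so that 0 is the array's 75th percentile. Differences were taken between arrays for the same probe. Mean levels over the arrays served only to choose a gene's probe and which members to name, and rank no gene by abundance. A probe was taken as measured where the scanner software flagged it well above background, and as dim otherwise. Where 1 side was dim, the fold is a lower bound, written "at least", against either the lowest measured level of that array or the dim probe's level, whichever was higher. A member was counted where it stood at least 2-fold apart. Errors of a difference (±) are those of the scanner software's error model for the 2 spots, and they hold no animal-to-animal spread. For the members measured on an array, that spot error had medians of 0.15 to 0.16 and a range of 0.14 to 0.32 (log2).

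The gland labels were set against marker genes. The 9 serous acinar markers were all at least 2-fold lower on both other arrays than on the parotid array, and the 5 mucous acinar markers were all at least 2-fold higher there. Of 8 granular duct products compared, 0 stood 2-fold higher on the array labelled submandibular than on the parotid array, with summed scaled signals of 476, 542 and 421 (parotid, submandibular, sublingual). Granular ducts are a defining feature of the male rat submandibular gland, so this array is called submandibular-labelled throughout.

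Of the 74 members, the parotid array measured 48, the submandibular-labelled array 48 and the sublingual array 46. These are 64.9%, 64.9% and 62.2% of the members, where 54.4%, 52.3% and 54.7% of all gene names were measured. On all 3 arrays, 40 members were measured. Another 16 were measured on only 1 or 2 arrays, and 18 on none. Among the dim members were Sox7, Sox8 and Sox11, Foxd3, Foxh1, Foxi2, Foxl2, Foxn4 and Foxp4, Elk1, Erf and Etv4, Gata1 and Gata4, and Klf3, Klf8 and Klf12. A dim probe gives only an upper bound on its gene, and says nothing of whether the gene was off.

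**Figure D1:**
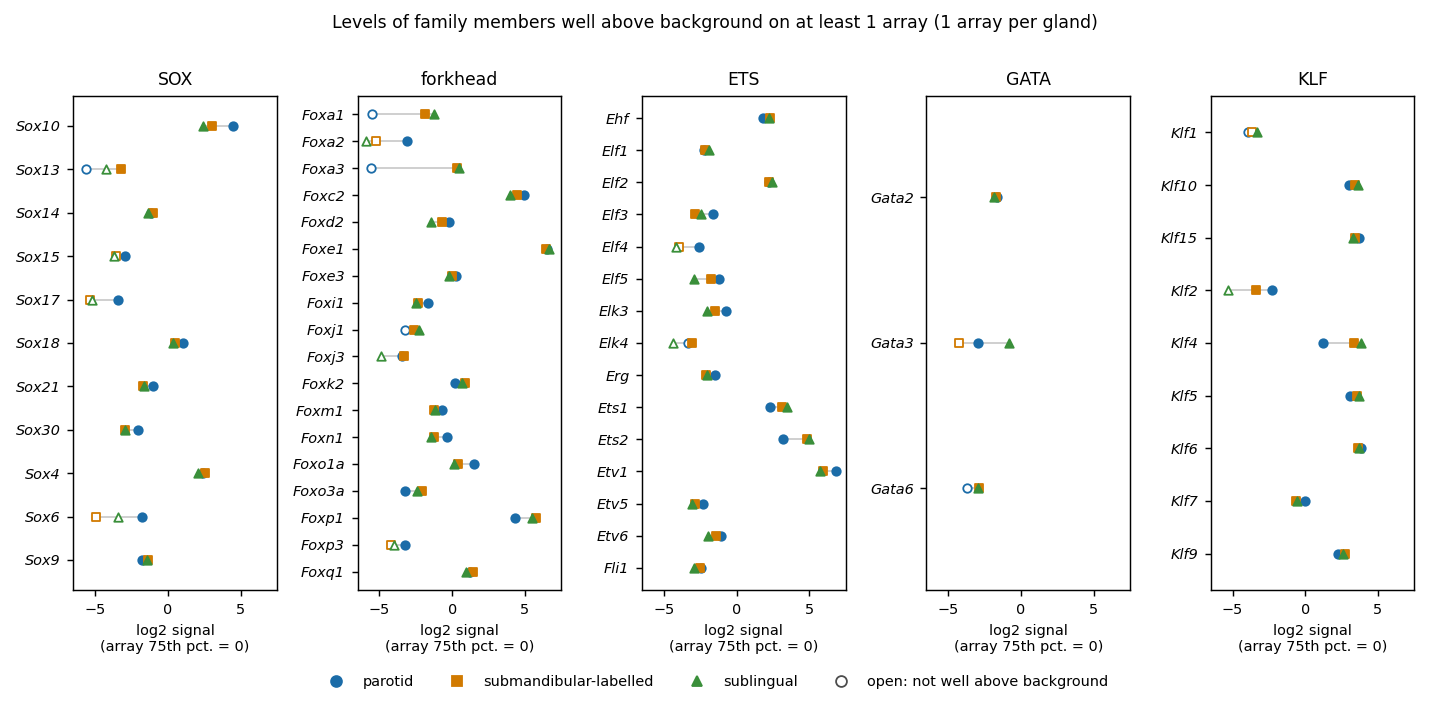
Levels (log2, array 75th percentile = 0, horizontal axis) of the members measured on all 3 arrays (40) or on 1 or 2 (16), by family, with 1 point per array and a grey line over the range of the 3. Open symbols are not well above background. Most members have their 3 points close together, while Foxa1 and Foxa3 have an open parotid point far to the left.

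Most members measured on both arrays of a pair lay within 2-fold. Between the submandibular-labelled and parotid arrays, 55 members could be compared: 6 were higher (Ets2, Foxa1, Foxa3, Foxo3a, Foxp1, Klf4), 6 were lower (Elf3, Elf4, Foxo1a, Klf2, Sox10, Sox6), 33 measured on both arrays lay within 2-fold, and 10 had a bound under 2-fold, which leaves their size unknown. Over all gene names compared, 9.72% were higher and 13.9% lower, and the members had 10.9% each way. Between the sublingual and parotid arrays, 53 could be compared: 7 were higher (Ets1, Ets2, Foxa1, Foxa3, Foxp1, Gata3, Klf4) and 10 lower (Elf4, Elf5, Elk3, Etv1, Foxd2, Foxn1, Foxo1a, Klf2, Sox10, Sox6). Another 29 measured on both lay within 2-fold, and 7 had a bound under 2-fold. The members' 13.2% higher and 18.9% lower stand beside 11.2% and 12.9% over all gene names. Both comparisons use the same parotid array, so the names they have in common are not independent. At 4-fold, Foxa3 and Klf4 were higher on the submandibular-labelled array (2.55% of all gene names were) and 0 members were lower (3.19%). On the sublingual array Foxa1, Foxa3, Gata3 and Klf4 were 4-fold higher (2.65%) and Sox10 lower (2.76%).

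The sublingual and submandibular-labelled arrays were close for these families. Of 50 members compared, 1 was higher on the sublingual array (Gata3), 1 was lower (Elf5), 43 measured on both lay within 2-fold and 5 had a bound under 2-fold. Over all gene names 1.77% were higher and 0.586% lower. Beyond 4-fold lay Gata3 alone (0.14% of all gene names higher, 0.0801% lower), and its sublingual value rests on 1 uneven spot described below. Of 13 members with several probes measured on both arrays, 6 had probes that differed in sign. In each comparison with the parotid array these were 2 of 12. The median difference over the members was -0.13, with 0.03 over all gene names. For the comparisons with the parotid array the medians were -0.25 (submandibular-labelled; -0.01 over all gene names) and -0.38 (sublingual; 0.02 over all). Centring the arrays on their medians in place of the 75th percentile moved the medians over all gene names by 0.31 and 0.23. It turned the first member median to 0.06, left the other at -0.14, and gave 8 higher against 2 lower and 9 higher against 6 lower. Over all gene names that scaling gave 17.4% higher and 8.58% lower, and 17.2% and 8.41%.

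**Figure D2:**
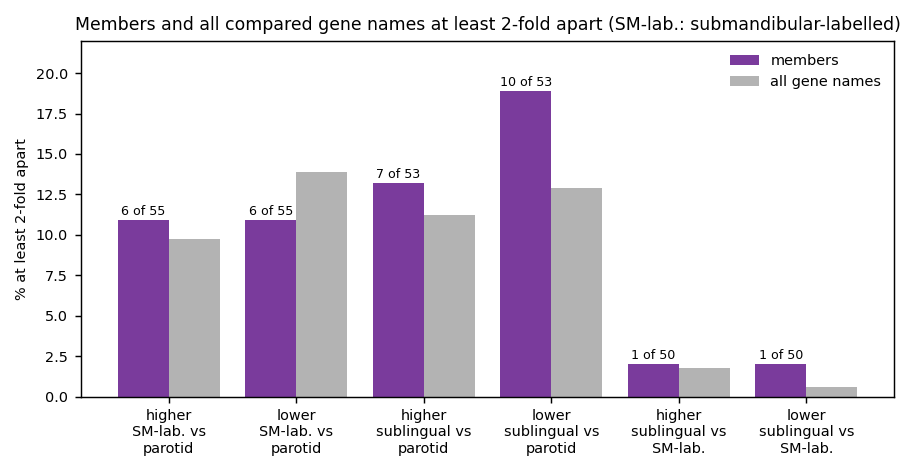
Percentage of compared genes at least 2-fold apart (vertical axis, from 0) among the members (purple, with counts) and among all gene names compared (grey), for each pair of arrays and direction. The largest gap is for the sublingual array below the parotid array, with 18.9% of members and 12.9% of all gene names.

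Among the forkhead factors, Foxa3 had the largest difference from the parotid array, and its relatives Foxa1 and Foxa2 ran in opposite directions. FOXA proteins are pioneer factors of gut, liver, pancreas and airway, and Foxa3 is also known from mucous goblet cells. The probe for Foxa3 (rn4 chr1:78368219-78368278) had a level of -5.61 on the parotid array, with 0.32 (submandibular-labelled) and 0.44 (sublingual) on the others. Only the parotid value was dim. The submandibular-labelled array was at least 13.5-fold higher, and the sublingual array at least 14.7-fold. Foxa1 (chr6:77976521-77976580) had the same order, at -5.50 (dim), -1.88 and -1.27, that is at least 2.94-fold (submandibular-labelled) and at least 4.48-fold (sublingual) above parotid. Foxa2, described here after its values were seen, ran the other way, at -3.11 on the parotid array and dim on both others (-5.21 and -5.90). It was lower by at least 1.45-fold and 1.54-fold, bounds that do not reach 2-fold.

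The sequences upstream of Foxa3 and Foxp1 are shown. Foxa3 was taken as the forkhead member furthest above the parotid array, and Foxp1 because its window holds the forkhead motif named below. The Foxp1 match was thus selected for. The sequences are RefSeq's 250 bases before the annotated start in build GRCr8, on the minus strand in both genes, written 5′ to 3′. For Foxa3 they are chr1:87799486-87799735 and for Foxp1 chr4:133353281-133353530. Capitals mark the forkhead motif searched on both strands, TGTTTAC.
Foxa3: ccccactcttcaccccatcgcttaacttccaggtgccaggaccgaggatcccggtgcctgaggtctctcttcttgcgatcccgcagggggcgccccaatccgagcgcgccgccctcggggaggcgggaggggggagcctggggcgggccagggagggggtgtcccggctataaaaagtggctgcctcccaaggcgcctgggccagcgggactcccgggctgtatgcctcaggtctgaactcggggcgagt
Foxp1: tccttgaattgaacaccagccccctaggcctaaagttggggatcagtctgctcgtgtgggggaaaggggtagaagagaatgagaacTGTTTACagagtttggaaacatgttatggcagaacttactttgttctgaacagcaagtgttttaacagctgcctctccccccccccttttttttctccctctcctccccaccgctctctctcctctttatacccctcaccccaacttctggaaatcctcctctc
The Foxp1 window holds the motif on its sense strand, 164 to 158 bases upstream of the start, and the Foxa3 window holds none. GC content was 69.6% for Foxa3 and 49.6% for Foxp1.

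RefSeq's table held 53 such windows for 49 of the 74 members, and 33469 in all. The forkhead motif was in 3 of the 53 member windows (5.66%) and in 3.21% of all windows. The ETS motif CCGGAA was in 5 (9.43%; 12.6% of all), the SOX motif AACAAT in 8 (15.1%; 10.3%), and the GATA motif AGATAA in 3 (5.66%; 10.3%). The KLF motif CCACCC was in 21 (39.6%; 26.1%). All were searched on both strands, and no matches overlapped in the windows shown. A match describes these letters and is not a binding site.

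Foxp1, a transcriptional repressor (probe at chr4:133773452-133773511), had levels of 4.33, 5.73 and 5.51 on the parotid, submandibular-labelled and sublingual arrays. The submandibular-labelled array was 2.64-fold higher than parotid (log2 difference 1.40 ± 0.20). For the sublingual array the difference was 2.26-fold (1.18 ± 0.20), and quantile normalization brought it to 0.79, within 2-fold. FOXO proteins act where insulin and growth factor signalling through AKT is low. Foxo1a was highest on the parotid array, at 1.51, with 0.43 and 0.11 on the others, or 2.12-fold and 2.64-fold lower. Foxo3a was lowest there, at -3.28, with -2.05 and -2.44, or 2.33-fold and 1.79-fold higher. These 2 closely related factors thus ran in opposite directions, with Foxo3a close to the dimmest measured level of the parotid array (-3.43). Background correction by the normexp method brought the Foxo3a differences to 0.40 (submandibular-labelled) and 0.02 (sublingual), and those of Foxo1a to -0.85 and -1.12.

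The forkhead member Foxe1, known from thyroid and palate development, was at 6.52, 6.44 and 6.64. No pair differed by more than the error of the difference (0.20). Foxc2, a factor of mesenchyme and lymphatic vessels, was at 4.92, 4.44 and 3.96, or 1.40-fold and 1.95-fold lower than on the parotid array. Its other probe was measured on the parotid array only (-1.70, then dim at -5.67 and -4.25). Fibroblast markers were lower too, 4 of 8 by at least 2-fold on each array, with medians of -1.08 and -0.93 and summed scaled signals of 202, 69.6 and 80.7; their part was not tested. Foxn1, the factor of thymic and skin epithelium, was at -0.39, -1.23 and -1.44, or 1.79-fold and 2.07-fold lower. Foxd2 was at -0.20, -0.72 and -1.44, or 1.44-fold and 2.36-fold lower. Its probe carries the name Foxd2 but is described in the file as Foxd1, so which of the paralogues it reads is uncertain.

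Between the submandibular-labelled and parotid arrays 18 forkhead members were compared, with 4 higher and 1 lower (all gene names: 9.72% and 13.9%). Between the sublingual and parotid arrays 17 were compared, with 3 higher and 3 lower (all gene names: 11.2% and 12.9%). The forkhead median differences were -0.20 and -0.44, and the first turned to 0.11 with median centring, where all gene names had 0.30. Between the sublingual and submandibular-labelled arrays, 0 of 16 reached 2-fold, 1 of them by a bound (all gene names: 1.77% higher, 0.586% lower). The forkhead members measured on both sides of that pair had differences of -0.71 to 0.61.

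**Figure D3:**
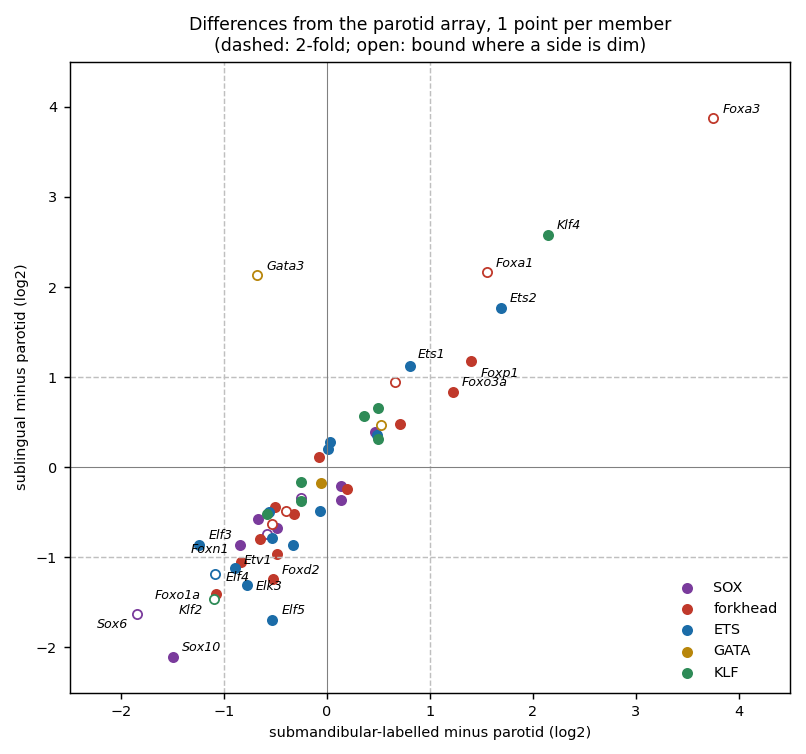
Log2 difference from the parotid array for each member compared in both pairs, with the submandibular-labelled array on the horizontal axis and the sublingual array on the vertical axis. Colours give the family, open points are bounds and dashed lines mark 2-fold; both axes subtract the same parotid value, so points lie near the diagonal for that reason too. Foxa3 and Klf4 are at the upper right, Sox10 at the lower left, and Gata3 lies apart at the upper left.

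Of the SOX members, 2 were at least 2-fold lower outside the parotid array and 0 higher. Among all gene names 13.9% (submandibular-labelled) and 12.9% (sublingual) were lower, and 9.72% and 11.2% higher. Sox2, which the files carry under another name and which is thus no member, was higher there by at least 168-fold and 126-fold. Sox10, a factor of neural crest and Schwann cells that also acts in salivary acinar and myoepithelial progenitors, stood at 4.51 on the parotid array, with 3.02 (submandibular-labelled) and 2.41 (sublingual) on the others (probe at chr7:117138840-117138899). The submandibular-labelled level was 2.82-fold lower than parotid (-1.49 ± 0.20), and the sublingual level 4.29-fold lower (-2.10 ± 0.20). The sublingual and submandibular-labelled arrays differed by 1.52-fold (-0.61 ± 0.20). Markers of Schwann cells were mostly lower too. Of 5 compared, 3 and 2 were at least 2-fold lower, with medians of -1.44 and -0.89. Summed scaled signals were 4.73, 4.11 and 3.98 (parotid, submandibular-labelled, sublingual). The defining marker Pmp22 was higher on both arrays, with log2 differences of 0.34 and 0.18. The defining Schwann marker S100b was dim on all 3 arrays. Myoepithelial and basal markers went the other way, with 4 of 4 compared at least 2-fold higher on both arrays. The part of these cells in the Sox10 difference was not tested.

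Sox6, a SOXD factor that lacks an activation domain of its own, was measured on the parotid array only, at -1.79, with dim values of -4.93 and -3.42. It was thus lower by at least 3.61-fold (submandibular-labelled) and 3.08-fold (sublingual). Its other probe was dim on all 3 arrays, and with the median of its probes the differences came to -0.07 and -0.16. Sox4, a SOXC factor of progenitor cells, differed by at most 1.41-fold between any pair on the probe used, at 2.41, 2.54 and 2.05. Another Sox4 probe put the sublingual array lower by a log2 difference of -0.72 against parotid and -0.65 against submandibular-labelled. Sox18, a factor of endothelium, was at 1.02, 0.53 and 0.34, or 1.40-fold and 1.60-fold lower. Its second probe had the same order, at -0.09, -0.96 and -1.55. Sox9, a factor of the end buds of the developing gland that was added after its values were seen, was at -1.80, -1.34 and -1.41, within 1.38-fold on the probe used. Its other probe had log2 differences from the parotid array of 0.55 and 0.60.

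Over the SOX family, 11 members were compared with the submandibular-labelled array and 10 with the sublingual array. In each pair 2 were at least 2-fold lower (Sox6 and Sox10), beside 13.9% and 12.9% of all gene names. The SOX medians were -0.49 and -0.63. The 7 measured on both the sublingual and submandibular-labelled arrays lay within 2-fold of each other, and Sox13 had a bound only. SOX members were measured less widely outside the parotid array, with 10 of 14 there, then 8 (submandibular-labelled) and 7 (sublingual). Among all gene names 54.4%, 52.3% and 54.7% were measured. Sox15 and Sox17 were measured on the parotid array alone, and Sox13 on the submandibular-labelled array alone. Sox17 (-3.39) lay close to the lowest measured level of the parotid array (-3.43). The bounds of Sox13, Sox15 and Sox17 all stayed under 2-fold.

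Among the ETS factors, the closely related Ets1 and Ets2, targets of MAP kinase signalling, were both lowest on the parotid array. Ets2 (probe at chr11:36030593-36030652) had levels of 3.19, 4.88 and 4.96 on the parotid, submandibular-labelled and sublingual arrays. Relative to parotid this was 3.22-fold higher (submandibular-labelled, 1.68 ± 0.20) and 3.42-fold higher (sublingual, 1.77 ± 0.20). A second Ets2 probe was dim on the parotid array (-3.83) and measured on the others (-2.09 and -2.48), so that it too was lowest on the parotid array. Ets1 was at 2.32, 3.13 and 3.45, or 1.75-fold and 2.19-fold higher. With quantile normalization the sublingual difference of Ets1 came to 0.85, within 2-fold.

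Etv1, of the PEA3 group that responds to fibroblast growth factors, ran the other way. Its levels were 6.86, 5.96 and 5.75, or 1.86-fold and 2.16-fold lower than on the parotid array. All 3 of its probes gave the same order, with sublingual differences of -1.52, -1.07 and -1.11. Its close relative Etv4 was dim on all 3 arrays. Median centring brought the sublingual difference of Etv1 to -0.87, within 2-fold.

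The ETS factors known from epithelia did not share a direction. Elf5, which directs secretory alveolar differentiation in the mammary gland, was at -1.24 (parotid), -1.77 (submandibular-labelled) and -2.93 (sublingual). Its sublingual level was 3.23-fold below parotid (-1.69 ± 0.29) and 2.23-fold below the submandibular-labelled level (-1.16 ± 0.29). Elf3, a factor of differentiating epithelia, was at -1.59, -2.84 and -2.45, or 2.37-fold and 1.81-fold lower than on the parotid array. Background correction by the normexp method brought the Elf5 differences to -0.78 and -0.48 and the submandibular-labelled difference of Elf3 to -0.51, all within 2-fold. Ehf, a relative of both that was added after its values were seen, was at 1.84, 2.32 and 2.20, or 1.40-fold and 1.29-fold higher than on the parotid array. Duct markers, a list that includes Elf3, went both ways: in each comparison 3 of 7 were at least 2-fold higher (Krt7, Krt19, Cldn4), and 3 of 7 were below the parotid value. The part of duct cells in these differences was not tested.

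Elk3, a ternary complex factor known from vessels, was at -0.71, -1.48 and -2.01, or 1.71-fold and 2.47-fold lower than on the parotid array. Its other probe, also measured on all 3 arrays, had log2 differences of -0.72 and -0.73, both within 2-fold. Elf4, a factor of lymphocytes, was measured on the parotid array only, at -2.55, and was dim on the others, lower by at least 2.13-fold (submandibular-labelled) and 2.27-fold (sublingual). Over the family, 15 members were compared between the submandibular-labelled and parotid arrays, with 1 higher and 2 lower (all gene names: 9.72% and 13.9%). Between the sublingual and parotid arrays 14 were compared, with 2 higher and 4 lower (all gene names: 11.2% and 12.9%). The ETS medians were -0.34 and -0.64. Markers of immune cells were mixed beside Elf4. Of 7 compared, 3 were at least 2-fold lower on each array, with medians of -0.54 and -0.68 and summed scaled signals of 37.8, 22.3 and 22.02 (parotid, submandibular-labelled, sublingual). The leukocyte surface marker Cd52 went the other way, higher by at least 12.4-fold and 16.9-fold, the largest difference of that list. The defining T cell markers Cd3e and Cd4 were dim on all 3 arrays, and the part of immune cells was not tested.

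KLF members held the measured member with the largest difference not resting on a dim side. Klf4, a factor of epithelial differentiation that is needed for colonic goblet cells, was at 1.23 on the parotid array and at 3.37 (submandibular-labelled) and 3.80 (sublingual) on the others (probe at chr5:73446994-73447053). Its submandibular-labelled level was 4.43-fold above parotid (2.15 ± 0.20), and its sublingual level 5.98-fold (2.58 ± 0.20). Between those 2 arrays Klf4 differed by 1.35-fold. Over the processing alternatives its differences ranged from 1.98 to 2.46 and from 2.35 to 2.82.

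Klf2, known for quiescence of endothelium and T cells, was highest on the parotid array. Its levels were -2.27, -3.37 and a dim -5.33, or 2.14-fold and at least 2.76-fold lower. Another 6 KLF members, measured on all 3 arrays, lay within 2-fold. Klf5, a factor of proliferating epithelium often set against Klf4, was at 3.06, 3.55 and 3.72, or 1.41-fold and 1.58-fold higher than on the parotid array. Klf6 was at 3.86, 3.61 and 3.70, and Klf15, a metabolic factor induced by glucocorticoids, at 3.66, 3.40 and 3.28. In each comparison with the parotid array, 1 KLF member was higher (Klf4) and 1 lower (Klf2), of 8 and 9 compared. Among all gene names 9.72% and 11.2% were higher, and 13.9% and 12.9% lower. The KLF medians were 0.05 and 0.12, and the first turned to -0.22 with quantile normalization.

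Of the 5 GATA factors, only Gata2 was measured on all 3 arrays, and 2 were dim on all. Gata2, a factor of blood and endothelium, differed by at most 1.13-fold, at -1.65, -1.71 and -1.83. Gata3, a factor of T cells and of luminal mammary cells, was at -2.97 (parotid), dim at -4.22 (submandibular-labelled) and at -0.83 (sublingual; probe at chr17:79991712-79991771). The sublingual value was 4.39-fold above the parotid value and at least 7.03-fold above the submandibular-labelled value. It rests on 1 uneven spot, whose pixels had an SD of 60.4% of their mean, where the median over measured members on that array was 17.3%. That spot was the only member spot removed when spots above 40% were left out, and Gata3 then had no sublingual value. Gata6, a factor of endoderm and heart, had 4 probes that did not share a direction, and the probe used was dim on the parotid array (-3.69) and at -2.91 and -2.97 on the others.

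Other processing left some of these differences within 2-fold. With normexp these were, for the submandibular-labelled array against parotid, Elf3, Elf4, Klf2, Sox6, Foxa1 (0.60), Foxo1a and Foxo3a (0.40). For the sublingual array against parotid they were Elf4, Elf5, Elk3, Gata3 (0.85), Klf2, Sox6, Foxa1 (0.98), Foxd2 and Foxn1. The offset of 50 in that setting makes the differences of weak spots smaller by construction. Foxa1, for example, had signals of 4.1 (parotid), 61.9 (submandibular-labelled) and 101 (sublingual). Quantile normalization took Elf4 and Klf2 (submandibular-labelled) and Elf4, Ets1, Foxn1 and Foxp1 (sublingual) below 2-fold. Median centring did so for Elf3, Elf4, Klf2 and Foxo1a in the first comparison and for Elf4, Etv1, Foxd2 and Foxn1 in the other.

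**Figure D4:**
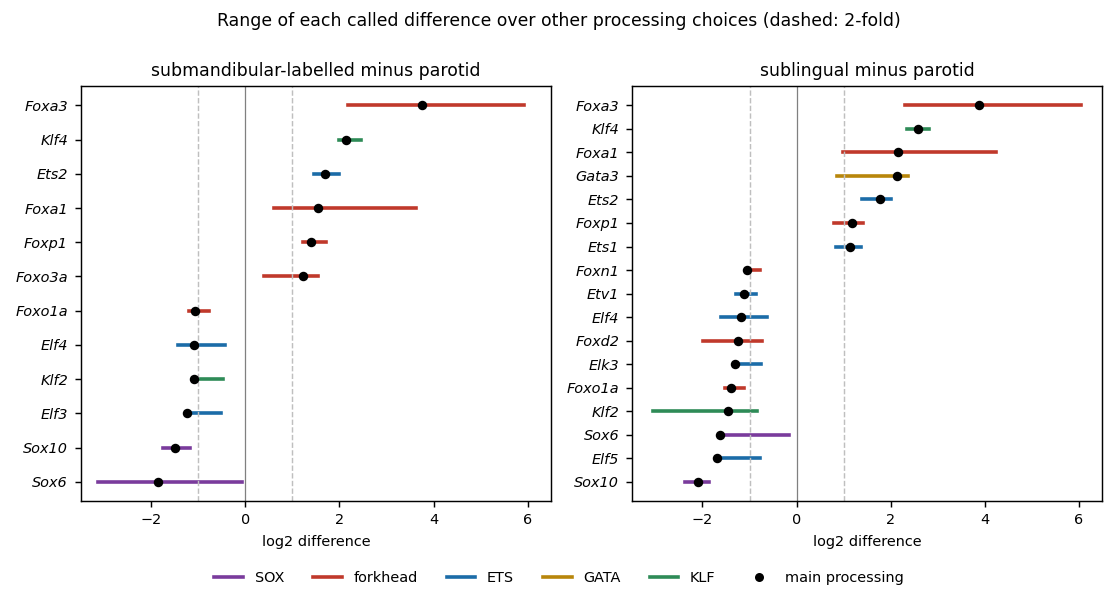
For each member at least 2-fold from the parotid array, the log2 difference under the main processing (black point) and its range over the other processing choices (coloured line, by family). Dashed lines mark 2-fold and the solid line no difference. Klf4, Ets2, Foxa3 and Sox10 stay beyond 2-fold in both panels, and Sox6 reaches almost to 0.

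Members known from blood vessels were mostly lower outside the parotid array. This list (Erg, Fli1, Ets1, Elk3, Sox7, Sox17, Sox18, Klf2, Gata2, Foxc2, Foxo1a) was put together after values had been seen, so its direction is a description that supports nothing. Of 10 compared, 9 were below the parotid value in each comparison, with medians of -0.49 and -0.59, against -0.01 and 0.02 over all gene names. Ets1 was the exception in both. With median centring 6 of 9 and 8 of 10 were below, with medians of -0.18 and -0.35, against 0.30 and 0.25 over all gene names. At least 2-fold lower were 2 (submandibular-labelled; 13.9% of all gene names) and 3 (sublingual; 12.9%). Endothelial marker genes had the same direction: 9 of 10 compared were below the parotid value in each, 3 and 6 of them at least 2-fold, with medians of -0.87 and -1.04. With median centring 1 and 2 of these markers were at least 2-fold lower, with medians of -0.56 and -0.80. With normexp 0 were in either comparison, with medians of -0.44 and -0.54. Summed scaled signals of the endothelial markers were 28.7, 15.6 and 18.9 (parotid, submandibular-labelled, sublingual), and the defining marker Tek was dim on all 3 arrays. In whole-gland RNA, fewer cells of a type and less RNA per cell cannot be told apart, and the part of endothelial cells in these differences was not tested. Lists of endoderm and mucous factors and of lymphocyte factors among the members were also drawn up, and both were mixed. Of 9 endoderm and mucous factors compared, 6 were above and 3 below the parotid value in each comparison. Of 7 lymphocyte factors, 2 were above and 5 below (submandibular-labelled), and 3 above and 4 below (sublingual).

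**Figure D5:**
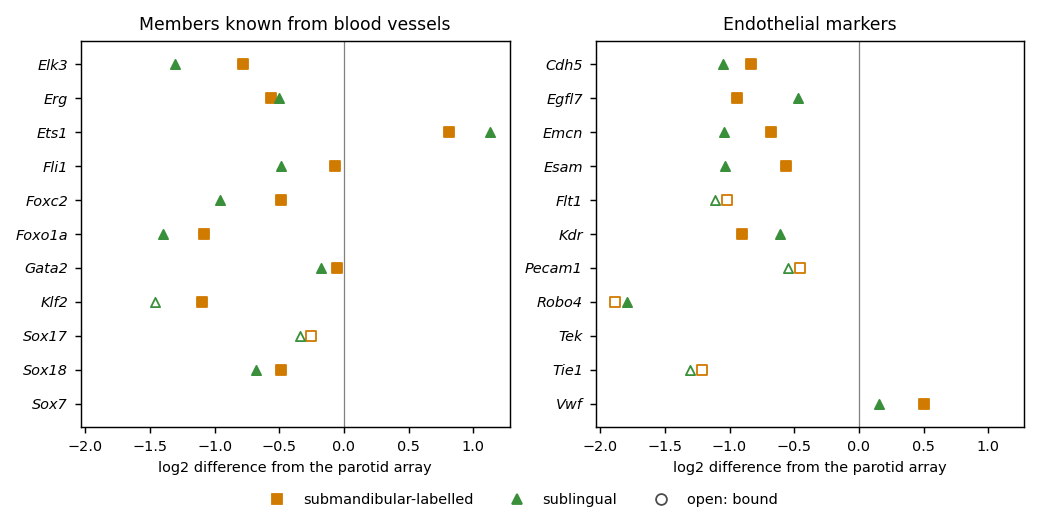
Log2 difference from the parotid array (horizontal axis) for members known from blood vessels (left) and endothelial marker genes (right), with squares for the submandibular-labelled array, triangles for the sublingual array and open symbols for bounds. Sox7 and Tek have no point because they were dim on all 3 arrays. Most points in both panels lie left of 0, with Ets1 and Vwf to the right.

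The lists of genes that work beside these factors were described in the same way. They share genes with the marker lists above, so their counts are not independent of those. All mucous acinar markers (Muc19, Agr2, Bpifb2, Gcnt3, Galnt5) are among the secretory regulators and mucous effectors. Krt5, Krt14 and Trp63 are both myoepithelial and basal markers and salivary progenitor genes. Of 17 secretory regulators and mucous effectors compared between the submandibular-labelled and parotid arrays, 10 were higher and 3 lower, with a median of 1.64. Between the sublingual and parotid arrays, 8 of 16 were higher and 4 lower, with a median of 0.96. Beside both lists, 9.72% of all gene names were higher and 13.9% lower (submandibular-labelled), and 11.2% and 12.9% (sublingual). The 4 with the largest differences were the mucin Muc19 (at least 9628-fold and 9041-fold higher), the disulfide isomerase Agr2 (at least 4544-fold and 5141-fold), the secreted protein Bpifb2 (345-fold and 310-fold) and the mucin glycosyltransferase Gcnt3 (at least 92.0-fold and 76.2-fold). Lower in both comparisons were the mucin Muc5b (at least 4.46-fold and 5.72-fold), Bhlha15 (2.65-fold and 3.48-fold) and Galnt3 (2.55-fold and 3.17-fold). Of 13 salivary progenitor genes compared, 7 were higher and 0 lower on the submandibular-labelled array (median 1.33), and on the sublingual array 7 of 12 were higher and 1 lower (median 1.15). The 4 with the largest difference in either comparison were the homeobox gene Nkx2-3 (at least 14.1-fold and 11.7-fold), the muscarinic receptor Chrm3 (4.84-fold and 5.51-fold) and the basal keratins Krt15 (4.80-fold and 4.15-fold) and Krt14 (3.12-fold and 2.05-fold).

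A further 17 genes of these families are on the array under other names and were therefore not members. They were sought after values had been seen. Of 13 compared with the parotid array, the same 3 were higher and the same 2 lower on both other arrays. Among all gene names 9.72% (submandibular-labelled) and 11.2% (sublingual) were higher, and 13.9% and 12.9% lower. Higher were Sox2 (at least 168-fold for submandibular-labelled, 126-fold for sublingual), Spdef (9.83-fold, 9.93-fold) and the forkhead gene Foxp2, at -2.58 on the parotid array, -0.43 and -0.51, or 4.45-fold and 4.20-fold. Lower were Foxc1 (6.68-fold, 9.06-fold) and Klf11, at -1.23, -2.59 and -2.83, or 2.57-fold and 3.03-fold. Between the sublingual and submandibular-labelled arrays 0 of the 13 were 2-fold apart.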

How the data were processed

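RNA from the 3 glands was measured on 1 Agilent array each. The deposited files hold intensity values of each spot with their errors, made by Feature Extraction 10.1.1.1 per the file headers (protocol GE1-v5_10_Apr08, design 014879, coordinates in rn4). The deposited value table of the authors holds a ratio per spot. Each of its columns equals the processed signal over a constant (190, 236 and 250 for the parotid, submandibular-labelled and sublingual arrays), with medians of 0.152, 0.122 and 0.128. The sources used here do not give how it was made.

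Levels are log2 of the deposited processed signal, less the 75th percentile of the array's probes (a signal of 186, 228 and 244). Left out were control spots and 68, 79 and 73 outlier spots, none of a member; 0 spots were saturated. For the 21 members with several probes, the probe of highest mean level was used. The lowest measured levels, used for bounds, were -3.43, -3.65 and -3.74. Repeat spots of a probe had a median SD of 0.09, 0.08 and 0.09 (log2). The number of arrays, 1 per gland, limits the precision.

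The members, lists and alternatives were chosen with earlier results of these data known. Named are members at least 2-fold apart in any pair and the 3 of each family with the highest mean level, 28 in all, and up to 4 of each partner list. Partner genes that were lower, or shared with the marker lists, are named in addition. Alternatives were normexp background correction in limma 3.58.1 (R 4.3.3, offset 50), normalization by quantiles, centring on medians, the deposited ratios, other filters, the median of probes and a 4-fold threshold. The counting step was tested on simulated data. Other tools were Python 3.11.15, numpy 2.4.6, pandas 2.3.3 and matplotlib 3.10.9.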

Additional observations from a re-analysis of the deposited data

How the results depend on the processing

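With 1 array per gland, no alternative could leave out a replicate. No paired analysis was possible because each gland has 1 array. Counts of members at least 2-fold higher or lower are given against 6 and 6 (submandibular-labelled against parotid), 7 and 10 (sublingual against parotid), and 1 and 1 (sublingual against submandibular-labelled). With normexp, the lower counts came to 1, 3 and 0, while the lower share of all gene names came to 5.24%, 4.76% and 0.177%. Median centring brought the lower counts against parotid to 2 and 6, and the shares to 8.58% and 8.41%. Only members measured on all 3 arrays left 3 lower in the first pair, 4 higher in the second and 0 higher in the third. Members with a dim side cannot enter. The matching shares of all gene names were 10.9%, 11.4% and 1.41%. With no bound and no filter, all 74 members entered, and 10 and 16 were lower against parotid (all gene names: 17.2% and 16.5%). In the third pair 3 were then higher and 6 lower (all gene names: 5.63% and 4.24%). The median of probes gave 2 lower in the third pair (0.672% of all gene names). At 4-fold there were 2 higher and 0 lower, 4 higher and 1 lower, and 0 lower in the third. The shares of all gene names were 2.55% and 3.19%, 2.65% and 2.76%, and 0.0801%. Leaving out spots with a pixel SD above 40% of the mean, an alternative chosen after seeing the data, gave 0 higher in the third pair. Among all gene names 1.65% were higher there. The normexp setting added an offset of 50 to each corrected signal, which makes the differences of weak spots smaller by construction. Median centring moves all measured differences of a pair by the same amount. The counts under these settings therefore cannot show whether a weak member's fold is stable. How much the background correction itself added was not tested, and neither was the cause for the median of probes. No named member at least 2-fold apart reversed direction under any of the alternatives run. Beyond 2-fold in both comparisons with parotid under every setting that gave a value were Ets2, Klf4, Sox10 and Foxa3. Gene names that are a RefSeq symbol had 11.1% higher and 11.4% lower (submandibular-labelled against parotid), and 12.6% and 12.5% (sublingual against parotid). Signal over background limits 16 members to bounds in 1 or more pairs and leaves 18 with no value.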
